A study of Homo sapiens with 14 samples.

Results

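Genes of cholesterol and lipid synthesis were followed through 45 days of cartilage formation in pellets of WA01 (H1), a line of human embryonic stem cells. The 31 genes were chosen by name, with earlier results of these data known, from the 60587 genes that each deposited table holds. They comprise 18 enzymes that build cholesterol, 5 genes that control the pathway, 5 genes of sterol transport and export, and 3 enzymes of fatty acid synthesis. RNA of whole pellets in chondrogenic medium was sequenced at day 21 (4 libraries), day 30 (5 libraries) and day 45 (5 libraries), with no untreated or undifferentiated group. The libraries come from a single line with the same medium throughout, and whether replicates were separate cultures is not in the labels, so p-values reflect only the spread among these libraries, which may be technical. The defining genes of cartilage were present: all 8 chondrocyte markers examined, among them COL2A1, ACAN and SOX9, rose from day 21 to day 45, and their summed level was 39629 to 50761 CPM (counts scaled to the size of the library) at day 21 and 195246 to 309228 CPM at day 45.

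Cholesterol is built from acetyl-CoA by way of mevalonate, the isoprenoids, squalene and lanosterol, and the early steps also feed dolichol and the lipid anchors of many proteins. When membranes of the endoplasmic reticulum are poor in sterol, SCAP carries the transcription factors encoded by SREBF1 and SREBF2 to the Golgi, where they are cut and released to switch on the enzymes. INSIG1 and INSIG2 hold SCAP back when sterol is plentiful, and liver X receptors, which sense oxysterols, drive export through ABCA1 and ABCG1. Cartilage has no blood vessels, and inborn defects of late enzymes of the pathway are known for skeletal malformations.

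Because the factors of this pathway act near gene starts, the promoters of 6 members whose levels are described below are shown first. They are the sterol-responsive factor SREBF2, its brakes INSIG1 and INSIG2, the late enzymes MSMO1 and DHCR7, which rose, and the late enzyme TM7SF2, which fell. Each is a 300-base window from RefSeq (GRCh38.p14), 250 bases before to 50 bases after the gene's start, written 5′ to 3′ on the gene's strand. The RefSeq start of DHCR7 lies inside the gene as GENCODE 29 draws it. Capitals mark a sterol regulatory element (TCACNCCAC) or a nuclear factor Y box (CCAAT, or ATTGG where it lies on the other strand).
SREBF2, chr22:41832855-41833154, plus strand: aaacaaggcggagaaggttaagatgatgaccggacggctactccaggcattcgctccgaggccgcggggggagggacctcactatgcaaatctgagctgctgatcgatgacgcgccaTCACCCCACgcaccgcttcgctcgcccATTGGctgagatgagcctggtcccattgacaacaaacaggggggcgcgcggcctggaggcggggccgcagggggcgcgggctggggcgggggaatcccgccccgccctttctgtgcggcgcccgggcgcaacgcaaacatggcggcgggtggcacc
INSIG1, chr7:155297628-155297927, plus strand: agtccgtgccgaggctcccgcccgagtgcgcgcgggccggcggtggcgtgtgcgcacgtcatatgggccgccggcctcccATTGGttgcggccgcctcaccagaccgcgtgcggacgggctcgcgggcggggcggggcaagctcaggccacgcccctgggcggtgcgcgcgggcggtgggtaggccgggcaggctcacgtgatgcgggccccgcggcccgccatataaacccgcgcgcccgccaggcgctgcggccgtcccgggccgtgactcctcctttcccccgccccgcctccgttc
INSIG2, chr2:118088221-118088520, plus strand: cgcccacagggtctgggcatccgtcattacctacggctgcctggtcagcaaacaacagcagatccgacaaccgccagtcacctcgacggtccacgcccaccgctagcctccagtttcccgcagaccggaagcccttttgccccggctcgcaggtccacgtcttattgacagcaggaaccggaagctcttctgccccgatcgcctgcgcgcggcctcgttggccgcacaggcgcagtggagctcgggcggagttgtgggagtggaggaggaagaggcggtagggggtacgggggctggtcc
MSMO1, chr4:165327419-165327718, plus strand: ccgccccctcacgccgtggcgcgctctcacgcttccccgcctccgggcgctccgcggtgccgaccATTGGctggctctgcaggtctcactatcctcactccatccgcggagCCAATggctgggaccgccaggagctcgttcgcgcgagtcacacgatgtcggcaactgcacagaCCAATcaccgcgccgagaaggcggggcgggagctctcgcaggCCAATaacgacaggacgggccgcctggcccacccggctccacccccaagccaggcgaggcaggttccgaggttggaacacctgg
DHCR7, chr11:71448344-71448643, minus strand: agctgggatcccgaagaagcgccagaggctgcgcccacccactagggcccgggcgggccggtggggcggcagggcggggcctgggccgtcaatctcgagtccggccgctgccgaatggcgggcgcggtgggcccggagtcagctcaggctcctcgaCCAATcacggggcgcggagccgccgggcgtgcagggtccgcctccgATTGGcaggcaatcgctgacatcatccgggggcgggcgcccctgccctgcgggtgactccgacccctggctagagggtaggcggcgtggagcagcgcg
TM7SF2, chr11:65111622-65111921, plus strand: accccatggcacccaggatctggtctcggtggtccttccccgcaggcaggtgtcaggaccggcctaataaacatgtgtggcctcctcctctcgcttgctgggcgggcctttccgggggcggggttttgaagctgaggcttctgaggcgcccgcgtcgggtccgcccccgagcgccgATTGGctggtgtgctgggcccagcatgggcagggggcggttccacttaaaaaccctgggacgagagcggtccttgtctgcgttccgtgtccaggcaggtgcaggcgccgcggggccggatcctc

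SREBF2 was the single member of the 26 with a promoter in the table whose window held the sterol element in this spelling, starting at position -133 from the gene's start, and 1.15% of all 27305 promoters of the table held it. The nuclear factor Y box was in 17 of the 26 windows (65.4%), against 35.7% of all promoters and 35.8% of those of genes tested here. MSMO1 carried 4 of them and DHCR7 2, while the INSIG2 window had none. The Sp1 box (GGGCGG, either strand) was in 25 of 26 windows (96.2%), against 44.6% of all promoters and 68.1% of those of genes tested. An E-box (CACGTG) was in 5 of 26 (19.2%, against 7.43% of all promoters and 9.78% of those of genes tested). The box of nuclear factor Y was found in 10 of 14 members that rose from day 21 to day 45, in 1 of 3 that fell (TM7SF2) and in 6 of 9 with no call. No overlap between motifs was removed, and letters in a window are neither a bound site nor a cause. ACAT2, ABCG1, FASN, SQLE and FDFT1 are named only.

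Levels of 1 gene across libraries are given below as CPM, scaled by the trimmed mean of M-values (TMM). Levels of different genes are compared as TPM, which also takes transcript length into account. Changes are log2 fold changes ± their standard error (SE) from a quasi-likelihood fit in edgeR, and a gene is called where its p, adjusted over all 17838 genes tested, is below 0.05. All 31 members passed the filter on low counts.

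The libraries held 18183776 to 33660704 expected counts. Day 30 replicates 3 to 5 stood apart from the rest. Across genes, which are not independent replicates, Spearman's rho between effective length and the deviation of a library was -0.43, -0.52 and -0.47 in these 3, -0.01 and -0.07 in their day 30 partners 1 and 2, and between 0.12 and 0.26 in libraries of days 21 and 45. In 14 of the 31 members (45.2%, against 24.5% of all genes tested) replicates 1 and 2 were both above replicates 3 to 5, and in 7 (22.6%, against 23.1%) both were below, so the steps to and from day 30 that are described below are also given without those 3 libraries. For day 45 replicate 1 the title and the treatment label (30 days) disagree, and the title was used. No replicates of a day agreed within sampling noise (chi-square of 7.82 to 166.89 for each degree of freedom).

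More cholesterol and lipid genes rose than fell between day 21 and day 45. Of the 31 members, 18 were called higher, 3 lower (TM7SF2, PMVK and ACACA) and 10 were not called, while 27.1% of all genes tested were higher and 30.5% lower. The median log2 fold change was 0.28 for the members and -0.05 for all genes. Libraries of the 2 days did not overlap for 19 members, and this held for 51.5% of all genes. The largest changes were in INSIG2 (1.97 ± 0.14), TM7SF2 (-1.95 ± 0.21), SCD (1.65 ± 0.15) and MSMO1 (1.53 ± 0.19).

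This balance was not the same in TPM. On the deposited TPM, with limma on log2(TPM + 1), 8 members were higher and 11 lower at day 45 than at day 21, beside 11.8% and 48.4% of all genes. The median was then -0.15 for the members and -0.34 for all genes. The 8 higher on both scales were INSIG2, SCD, MSMO1, DHCR7, NPC1, INSIG1, FASN and MVD. The other 10 that rose in CPM were not called in TPM.

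From day 21 to day 30, 14 members rose and 4 fell (ABCA1, ABCG1, ACACA and PMVK), beside 27.2% and 27.1% of all genes, and 13 members had libraries that did not overlap, as had 42.4% of all genes. Without day 30 replicates 3 to 5 the counts were 13 and 6, beside 19.6% and 21.7% of all genes in that fit. In log2(TPM + 1), 2 rose (INSIG2 and MSMO1) and 14 fell, beside 9.75% and 50.3% of all genes. From day 30 to day 45, 17 rose and 3 fell (TM7SF2, SREBF1 and EBP), beside 27.6% and 28.7% of all genes, and 12 did not overlap, as had 38.3% of all genes. In log2(TPM + 1), 14 rose and 3 fell from day 30 to day 45, beside 27.1% and 23.1% of all genes. Without day 30 replicates 3 to 5, 11 rose and 2 fell, beside 19.6% and 19.3%. An offset for effective length also moved calls. With it the steps to day 30 of ACAT2, MVK, FDFT1 and EBP and the steps from day 30 of ACACA and EBP were not called, while CYP51A1, SQLE, SREBF2, FASN and NPC1 were called higher and TM7SF2 and NPC2 lower at day 30 than at day 21. From day 30 to day 45 it added rises of ACAT2, FDFT1, FDPS, MSMO1 and NPC2. By mean CPM, 16 members rose in order from day 21 to day 30 to day 45, and PMVK and TM7SF2 fell in order.

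**Figure D1:**
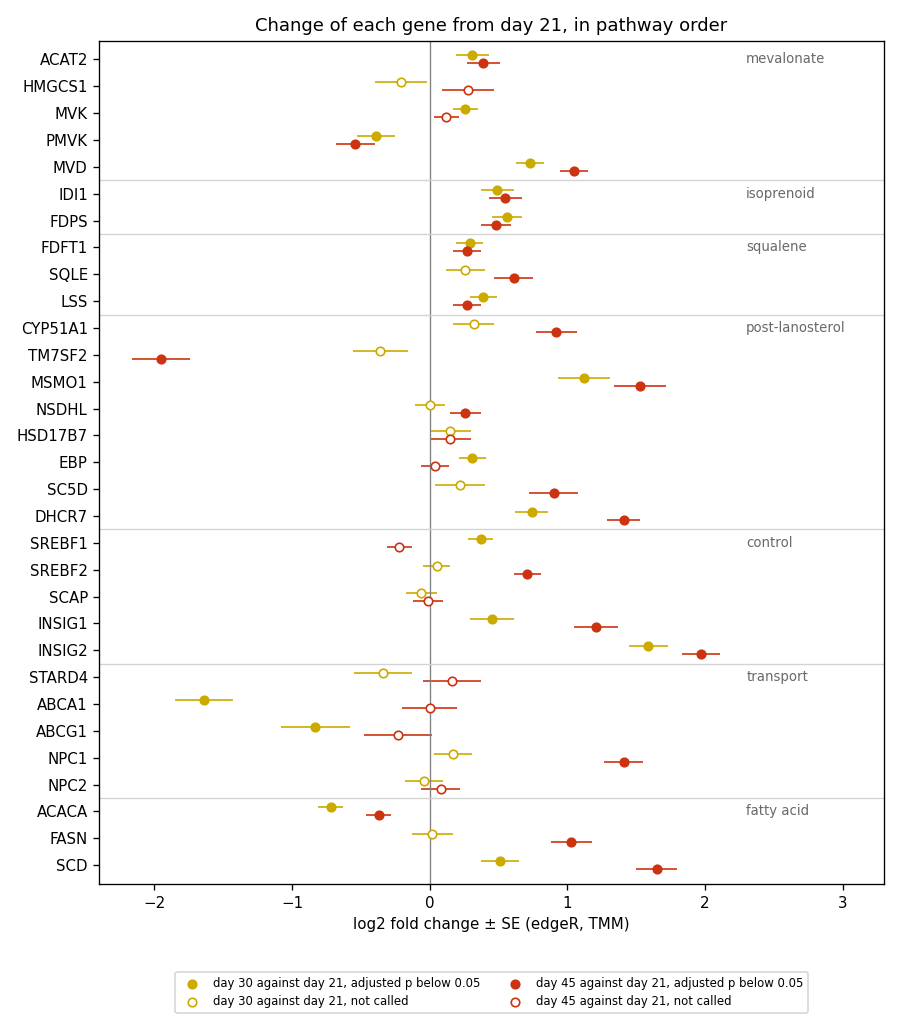
Log2 fold change from day 21 (x axis, edgeR on TMM-scaled counts) for each of the 31 genes, in pathway order, at day 30 and at day 45. Points are fitted changes, bars the SE, and filled points are called at an adjusted p below 0.05. INSIG2 lies farthest right at both days, ABCA1 farthest left at day 30 and TM7SF2 farthest left at day 45.

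By TPM averaged over the 14 libraries, SCD was the most abundant member at 270 TPM, followed by FDPS at 225, NPC2 at 188 and FDFT1 at 173 TPM. At the low end were TM7SF2 at 8.60, HSD17B7 at 7.21, ABCA1 at 4.16 and ABCG1 at 2.31 TPM. The lead of SCD came from day 45, when its mean was 420 TPM. At day 21 its mean of 181 TPM was below those of NPC2 (241 TPM), FDPS (216 TPM) and FDFT1 (193 TPM). At day 30 the mean of SCD was 191 TPM, below FDPS at 237 TPM. That order came from day 30 replicates 3 to 5 (SCD 177, 155 and 124 TPM, FDPS 248, 254 and 223 TPM). In day 30 replicates 1 and 2, SCD was above FDPS (245 and 256 TPM against 219 and 241 TPM). The library ranges of FDPS (204 to 254 TPM) and NPC2 (122 to 271 TPM) overlapped over all days, but their order held within each day. NPC2 was above FDPS in every day 21 library and below it in every library of days 30 and 45. Members above the median of all genes tested, 8.47 TPM, numbered 28.

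The 5 enzymes that lead to mevalonate and its activated form did not move as a block. ACAT2, which joins acetyl-CoA units, and MVD, which makes isopentenyl pyrophosphate, rose from day 21 to day 45, PMVK fell, and HMGCS1 and MVK were not called. MVD, at chr16:88651935-88663161 in GRCh38, stood at 39.8, 41.5, 35.2 and 37.2 CPM in the day 21 libraries, at 61.7, 66.2, 66.9, 67.0 and 56.9 CPM at day 30 and at 94.4, 69.0, 79.5, 76.7 and 77.0 CPM at day 45. All day 30 libraries were above all of day 21 and below all of day 45. The change was 0.73 ± 0.10 by day 30 (adjusted p = 8.24e-06) and 1.05 ± 0.10 by day 45 (adjusted p = 7.73e-08), and its step from day 30 to day 45 was 0.32 (adjusted p = 0.00675, but 0.397 with day 45 replicate 1 placed at day 30). The steps of MVD were 0.73 (adjusted p = 0.000103) and 0.30 (adjusted p = 0.0471) without day 30 replicates 3 to 5.

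PMVK, which adds the next phosphate to mevalonate phosphate, went the other way, with 16.2, 17.7, 20.5 and 20.6 CPM at day 21 and 13.6, 13, 15.4, 12.2 and 10 CPM at day 45. Every day 45 library lay below every day 21 library, with a change of -0.54 ± 0.14 (adjusted p = 0.00386), and in log2(TPM + 1) the change was -0.97. Its day 30 libraries, at 10.1 to 16.9 CPM, overlapped both other days, and its fall by day 30 (-0.39, adjusted p = 0.0301) was lost without day 21 replicate 3 (0.0799), day 21 replicate 4 (0.0842) or day 30 replicate 2 (0.0686), and was -0.65 (adjusted p = 0.00611) without day 30 replicates 3 to 5. MVK, which adds the first phosphate, was at 15.8 to 19.8 CPM at day 21 and 18.6 to 21.0 CPM at day 45, ranges that overlapped. Its day 30 change of 0.26 (adjusted p = 0.0233) was lost without day 21 replicate 3 (0.099) or 4 (0.0589), was 0.24 (adjusted p = 0.111) without day 30 replicates 3 to 5, and was -0.26 in log2(TPM + 1).

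HMGCS1, which makes HMG-CoA, was the most variable of the 5 at day 30, with 121 and 144 CPM in replicates 1 and 2 and 70.7, 88.1 and 71.0 CPM in replicates 3 to 5. Its day 21 libraries lay at 96.5 to 134 CPM and its day 45 libraries at 119 to 174 CPM, and the change between them was 0.28 ± 0.19 (adjusted p = 0.21). From day 30 to day 45 it rose by 0.49 (adjusted p = 0.0261), and that step was 0.06 (adjusted p = 0.78) without day 30 replicates 3 to 5. It was also lost without day 30 replicate 3 (0.0698), 4 (0.0592) or 5 (0.0597) or day 45 replicate 4 (0.0766). ACAT2 rose by 0.39 ± 0.12 by day 45 (adjusted p = 0.0103), from 28.4 to 30.6 CPM to 31.3 to 46.9 CPM, with no overlap. Its change in log2(TPM + 1) was -0.09. TCP1 overlaps ACAT2 on the opposite strand and averaged 134 CPM against 35.2 CPM for ACAT2, and the library kit does not mark strand. The step of ACAT2 to day 30 (0.31, adjusted p = 0.0378) did not hold when any of 7 libraries was left out (all 4 of day 21 and day 30 replicates 2, 4 and 5), with adjusted p of 0.0542 to 0.102, nor without day 30 replicates 3 to 5 together (0.23, adjusted p = 0.215).

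IDI1 and FDPS, which interconvert and join isoprenoid units, both rose by day 30, by 0.49 (adjusted p = 0.00194) and 0.56 (adjusted p = 0.000273), with no called change after it. Those rises were 0.63 (adjusted p = 0.000619) and 0.35 (adjusted p = 0.00899) without day 30 replicates 3 to 5. IDI1 moved from 40.7 to 56.2 CPM at day 21 to 59.3 to 76.6 CPM at day 45 (0.55 ± 0.12, adjusted p = 0.000551). FDPS moved from 90.8 to 99.7 CPM to 116 to 143 CPM (0.48 ± 0.11, adjusted p = 0.000966). Day 21 and day 45 did not overlap for either gene. From day 30 to day 45 the changes were 0.07 ± 0.11 (adjusted p = 0.61) and -0.09 (not called). For FDPS the later change was lower than the earlier by 0.65 (-0.65, adjusted p = 0.0048), a difference of -0.24 (adjusted p = 0.321) without day 30 replicates 3 to 5. The day 45 changes in log2(TPM + 1) were 0.12 for IDI1 and 0.02 for FDPS.

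The 3 squalene enzymes rose modestly, all called at day 45. SQLE, the oxygen-using enzyme that acts on squalene, went from 81.2, 84.2, 94.7 and 88.3 CPM at day 21 to 137, 112, 130, 151 and 135 CPM at day 45, with no overlap (0.61 ± 0.14, adjusted p = 0.00113). At day 30 its replicates 1 and 2 were at 125 and 130 CPM and replicates 3 to 5 at 98.8, 95.8 and 72.9 CPM. The day 30 change was 0.26 (adjusted p = 0.119) over all 5 libraries, 0.54 (adjusted p = 0.000645) without replicates 3 to 5, and called without replicate 5 alone (0.015). The step from day 30 to day 45 (0.35, adjusted p = 0.0295) was 0.05 (adjusted p = 0.72) without replicates 3 to 5. That step was also lost without any single library of day 30 replicates 3 to 5 or day 45 replicates 1, 4 and 5 (0.0509 to 0.0753).

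FDFT1, which makes squalene, and LSS, which closes the ring to lanosterol, each changed by 0.27 at day 45, with adjusted p of 0.0237 and 0.0294. FDFT1 was at 111 to 127 CPM at day 21 and 130 to 159 CPM at day 45, without overlap, whereas the LSS ranges, 89.2 to 104 CPM and 101 to 142 CPM, overlapped. The call of FDFT1 was lost without day 21 replicate 2 (0.0528) or 3 (0.0779) or day 45 replicate 3 (0.056) or 4 (0.0569). That of LSS was lost without day 21 replicate 3 (0.0562) or 4 (0.089) or day 45 replicate 1 (0.0872). Both were below 0 in log2(TPM + 1), at -0.17 for FDFT1 and -0.20 for LSS, neither called. At day 30, FDFT1 was higher by 0.29 (adjusted p = 0.0165, but 0.0623 without day 21 replicate 3) and LSS by 0.39 (adjusted p = 0.00371). With day 30 replicates 3 to 5 left out, FDFT1 was not called (0.20, adjusted p = 0.107) and LSS was at 0.47 (adjusted p = 0.00388), and after the length offset FDFT1 was at 0.08 (adjusted p = 0.513).

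The 8 enzymes that turn lanosterol into cholesterol held the largest changes among the enzymes. Between day 21 and day 45, MSMO1, DHCR7, CYP51A1, SC5D and NSDHL rose, TM7SF2 fell, and EBP and HSD17B7 were not called. MSMO1, at chr4:165327623-165343160, takes part in removing methyl groups from the sterol ring, and its promoter above holds the most nuclear factor Y boxes of the 6 shown. MVK (no call at day 45) and NSDHL, whose windows are not shown, hold more of these boxes. Whether the number of boxes goes with the change was not tested. MSMO1 was at 34.3, 43.6, 56.9 and 39.1 CPM at day 21, at 105, 132, 75.0, 96.1 and 64.9 CPM at day 30 and at 129, 97.4, 132, 134 and 136 CPM at day 45. Day 21 lay below every later library, while day 30 and day 45 overlapped. The change was 1.12 ± 0.19 by day 30 (adjusted p = 9.39e-05) and 1.53 ± 0.19 by day 45 (adjusted p = 2.72e-06). The step from day 30 to day 45 was 0.41 (adjusted p = 0.0511), became called when day 21 replicate 1 or 3, day 30 replicate 1 or 2 or day 45 replicate 2 was left out (0.00761 to 0.0467). Leaving out day 30 replicates 3 to 5 gave 1.44 (adjusted p = 1.74e-05) for the first step and 0.07 for the second.

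DHCR7, at chr11:71428193-71452868, encodes the reductase of the last step to cholesterol. Its level was 45.3, 41.9, 38.0 and 41.0 CPM at day 21, 70.2, 73.5, 83.4, 70.5 and 50.4 CPM at day 30 and 120, 100, 109, 111 and 113 CPM at day 45. The 3 days formed 3 separate ranges. DHCR7 rose by 0.74 ± 0.12 to day 30 (adjusted p = 4.65e-05) and by 0.67 ± 0.11 from day 30 to day 45 (adjusted p = 7.27e-05), and the 2 steps did not differ beyond their error (-0.08, adjusted p = 0.759). Over the whole period the change was 1.41 ± 0.12 (adjusted p = 2.2e-08), and in log2(TPM + 1) it was 0.89 (adjusted p = 7.21e-05). The first step was 0.09 (adjusted p = 0.618) in log2(TPM + 1). The 2 steps of DHCR7 were 0.78 (adjusted p = 9.45e-06) and 0.61 (adjusted p = 0.000192) without day 30 replicates 3 to 5.

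TM7SF2, at chr11:65111845-65116384, encodes a sterol reductase of the step after CYP51A1 and was the member that fell most. It measured 8.17, 9.47, 8.07 and 7.17 CPM at day 21, 5.05, 4.95, 6.34, 9.03 and 6.57 CPM at day 30 and 2.04, 2.59, 1.32, 1.89 and 2.80 CPM at day 45. All day 45 libraries were below all others, and day 21 and day 30 overlapped through day 30 replicate 4. The change was -1.95 ± 0.21 (adjusted p = 3.66e-07) over the whole period and -1.58 ± 0.20 (adjusted p = 6.53e-06) from day 30. The earlier step was -0.36 (adjusted p = 0.125), -0.72 (adjusted p = 0.0207) without day 30 replicates 3 to 5, and called without day 30 replicate 4 (0.0303). The later step was -1.24 (adjusted p = 0.000564) without those 3 libraries. TM7SF2 overlaps VPS51 on the same strand in GENCODE 29, and VPS51 averaged 47.1 CPM against 5.39 CPM for TM7SF2, so reads in the shared stretch may not be told apart. The fewest expected counts behind a TM7SF2 value were 36.

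CYP51A1, which removes a methyl group from lanosterol, and SC5D, a desaturase near the end, rose from day 21 to day 45, and the difference of the later step from the earlier was not called in either (0.28, adjusted p = 0.368, and 0.47, adjusted p = 0.203). CYP51A1 was at 51.5 to 69.9 CPM at day 21, 49.3 to 90.9 CPM at day 30 and 89.7 to 121 CPM at day 45 (0.92 ± 0.15 from day 21, adjusted p = 7.02e-05). SC5D was at 30.3 to 46.9 CPM, 29.3 to 59.4 CPM and 61.5 to 79.8 CPM (0.90 ± 0.18, adjusted p = 0.000453). In both genes day 45 did not overlap day 21. From day 30 the steps were 0.60 (adjusted p = 0.00202) and 0.69 (adjusted p = 0.00276). Without day 30 replicates 3 to 5 they were 0.30 (adjusted p = 0.0717) and 0.28 (adjusted p = 0.134), and the steps to day 30, not called over all libraries, were then 0.60 in both genes (adjusted p = 0.00116 and 0.00378). That of CYP51A1 was called without day 30 replicate 5 alone (0.00986). Neither gene's day 45 change was called in log2(TPM + 1), where they were 0.45 and 0.30.

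NSDHL, a dehydrogenase of the demethylation step, EBP, a sterol isomerase, and HSD17B7, a keto-reductase, changed little by day 45. NSDHL was at 12.9 to 14.8 CPM at day 21 and 14.3 to 18.6 CPM at day 45, overlapping, with a change of 0.26 (adjusted p = 0.0464) that was lost without any of 6 libraries (0.0555 to 0.116): day 21 replicates 2, 3 and 4 and day 45 replicates 1, 3 and 4. EBP was at 15.4 to 15.7 CPM at day 21, 15.9 to 21.7 CPM at day 30 and 14.6 to 16.9 CPM at day 45. It was called higher at day 30 (0.31, adjusted p = 0.0133) and lower again at day 45 (-0.27, adjusted p = 0.0197), and neither step was called without day 30 replicates 3 to 5 (0.12, adjusted p = 0.389, and -0.10, adjusted p = 0.467). The second was also lost without day 30 replicate 4 (0.054), day 30 replicate 5 (0.0659) or day 45 replicate 2 (0.0539). HSD17B7 lay between 4.02 and 6.66 CPM in all libraries of days 21 and 45 (0.15, adjusted p = 0.406). EBP and HSD17B7 were called lower at day 45 in log2(TPM + 1), at -0.42 and -0.33.

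Summed over the 18 enzymes, the level was 892 ± 34.4 CPM at day 21 (SD, n = 4), 1150 ± 118 CPM at day 30 and 1347 ± 115 CPM at day 45 (SD, n = 5 each). Day 21 (856 to 939 CPM) lay below all later libraries, and day 30 (965 to 1284 CPM) overlapped day 45 (1155 to 1457 CPM). In TPM the sums were 1173 ± 74.3, 1074 ± 169 and 1235 ± 104, and all 3 days overlapped. No test was made on these sums. In bulk RNA, fewer cells of a type and less RNA per cell cannot be told apart.

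**Figure D2:**
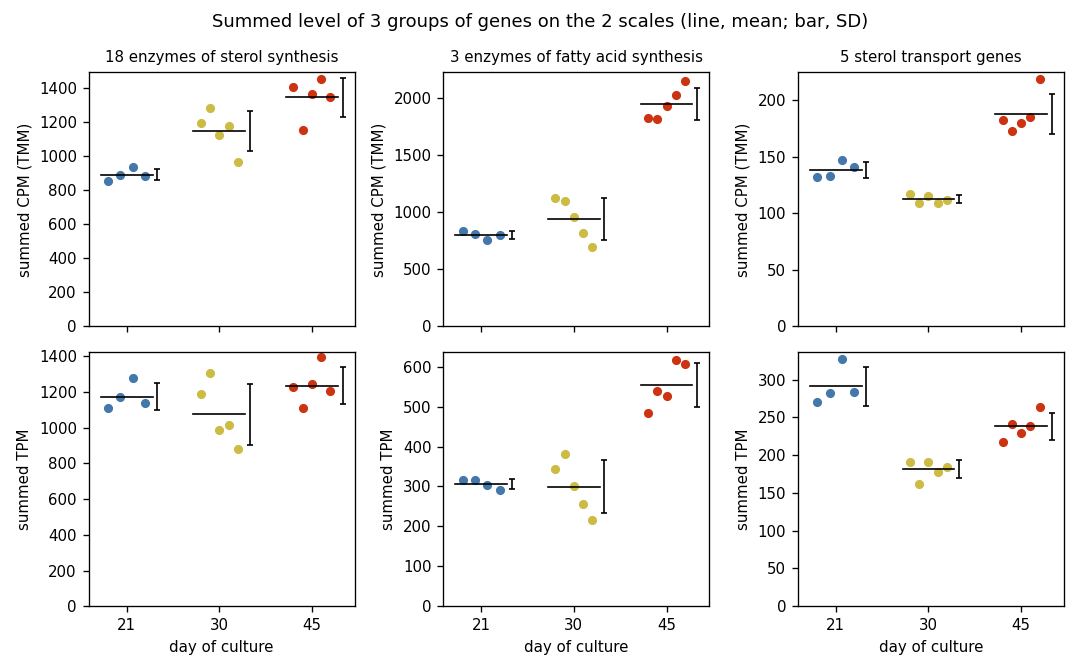
Summed level of the 18 enzymes of sterol synthesis, the 3 enzymes of fatty acid synthesis and the 5 transport genes, in CPM (upper row) and TPM (lower row), by day of culture. Points are libraries, lines means and bars SD. The sterol enzymes step up by day in mean CPM, where day 30 overlaps day 45, and all 3 days overlap in TPM. The summed fatty acid enzymes, of which SCD is the largest part, are highest at day 45 on both scales, and the transport genes are lowest at day 30 on both.

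The genes that control the pathway changed unequally: SREBF2, INSIG1 and INSIG2 rose by day 45, SCAP did not change by a called amount, and SREBF1 peaked at day 30. SREBF2, at chr22:41833079-41907308, encodes the factor that mainly drives the sterol enzymes, and its promoter above holds the sterol element. It was at 176, 168, 168 and 174 CPM at day 21, at 196, 187, 191, 167 and 144 CPM at day 30 and at 292, 283, 264, 263 and 301 CPM at day 45. The first 2 days overlapped and day 45 lay apart from both. Its change was 0.05 ± 0.10 to day 30 (adjusted p = 0.70) and 0.66 ± 0.09 from day 30 to day 45 (adjusted p = 1.35e-05), and the later step exceeded the earlier by 0.62 (adjusted p = 0.00425). After the length offset the first step of SREBF2 was called higher (0.44, adjusted p = 0.000752), whereas in log2(TPM + 1) it was called lower (-0.50, adjusted p = 0.00468). Without day 30 replicates 3 to 5 the steps were 0.15 (adjusted p = 0.182) and 0.54 (adjusted p = 0.000271). The difference between them was then 0.38 (adjusted p = 0.0897), not called with day 45 replicate 1 placed at day 30 (adjusted p = 0.356) and -0.01 after a length offset. SREBF2 in log2(TPM + 1) differed by 0.26 between day 45 and day 21 (adjusted p = 0.111).

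SREBF1, at chr17:17810399-17837002, encodes the factor tied more to fatty acid genes. It was at 79.2, 77.7, 64.4 and 67.2 CPM at day 21, at 88.3, 81.9, 103, 94.2 and 97.0 CPM at day 30 and at 65.2, 67.3, 55.8, 60.7 and 60.9 CPM at day 45. Day 30 lay above all other libraries, and day 21 and day 45 overlapped. SREBF1 rose by 0.37 ± 0.09 (adjusted p = 0.00358) and then fell by 0.58 (-0.58, adjusted p = 3.87e-05), and the steps differed (-0.95, adjusted p = 9e-05). Without day 30 replicates 3 to 5 the rise was 0.23 (adjusted p = 0.094) and the fall -0.47 (adjusted p = 0.00211), and in log2(TPM + 1) the first step was -0.17. With day 45 replicate 1 placed at day 30 the rise had an adjusted p of 0.06. Between day 21 and day 45 the change was -0.22 (adjusted p = 0.0553), called lower when day 21 replicate 3, day 30 replicate 2 or 3, or day 45 replicate 2 was left out (0.0322 to 0.0498). RAI1 overlaps SREBF1 on the opposite strand and averaged 118 CPM, and the library kit does not mark strand.

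INSIG1 and INSIG2 are the membrane proteins that retain SCAP, and INSIG1 is itself a target of the SREBP factors. INSIG1 was at 35.0, 39.5, 46.5 and 41.9 CPM at day 21, at 65.0, 69.4, 49.8, 55.6 and 37.7 CPM at day 30 and at 94.6, 73.6, 89.4, 106 and 107 CPM at day 45. Day 45 was above every other library, and day 30 overlapped day 21 through its replicate 5. INSIG1 rose by 1.21 ± 0.16 over the whole period (adjusted p = 4.36e-06) and by 0.76 from day 30 (adjusted p = 0.00031). Its first step of 0.45 (adjusted p = 0.0223) was lost without day 21 replicate 1 (0.0753) or 2 (0.0546) or day 30 replicate 2 (0.0571), was 0.72 (adjusted p = 0.000535) without day 30 replicates 3 to 5, when the second was 0.47 (adjusted p = 0.0119), and was -0.18 in log2(TPM + 1).

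INSIG2, at chr2:118088452-118110997, changed earlier. Its level was 16.9, 18.6, 20.8 and 15.5 CPM at day 21, 59.5, 73.6, 44.0, 50.3 and 43.8 CPM at day 30 and 72.8, 62.9, 71.9, 70.8 and 72.9 CPM at day 45. Every later library was more than every day 21 library, and day 30 replicate 2 was the highest of all. INSIG2 rose by 1.59 ± 0.14 to day 30 (adjusted p = 1.07e-07) and by 0.37 (adjusted p = 0.0198) from day 30 to day 45. The second step was lost without day 30 replicate 3 (0.0566) and was 0.07 (adjusted p = 0.677) without replicates 3 to 5, when the first was 1.88 (adjusted p = 1.28e-08). The later step was smaller than the earlier by 1.22 (-1.22, adjusted p = 0.000269), and by 1.81 (-1.81, adjusted p = 1.83e-05) without those 3 libraries. In log2(TPM + 1) that difference was -0.46 (adjusted p = 0.38), while the change to day 45 was 1.47 (adjusted p = 0.000151). SCAP, the carrier itself, lay at 62.7 to 73.8 CPM at day 21 and 61.3 to 74.8 CPM at day 45 (-0.01 ± 0.11, adjusted p = 0.938), and in log2(TPM + 1) its change was -0.53 (adjusted p = 0.00563).

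**Figure D3:**
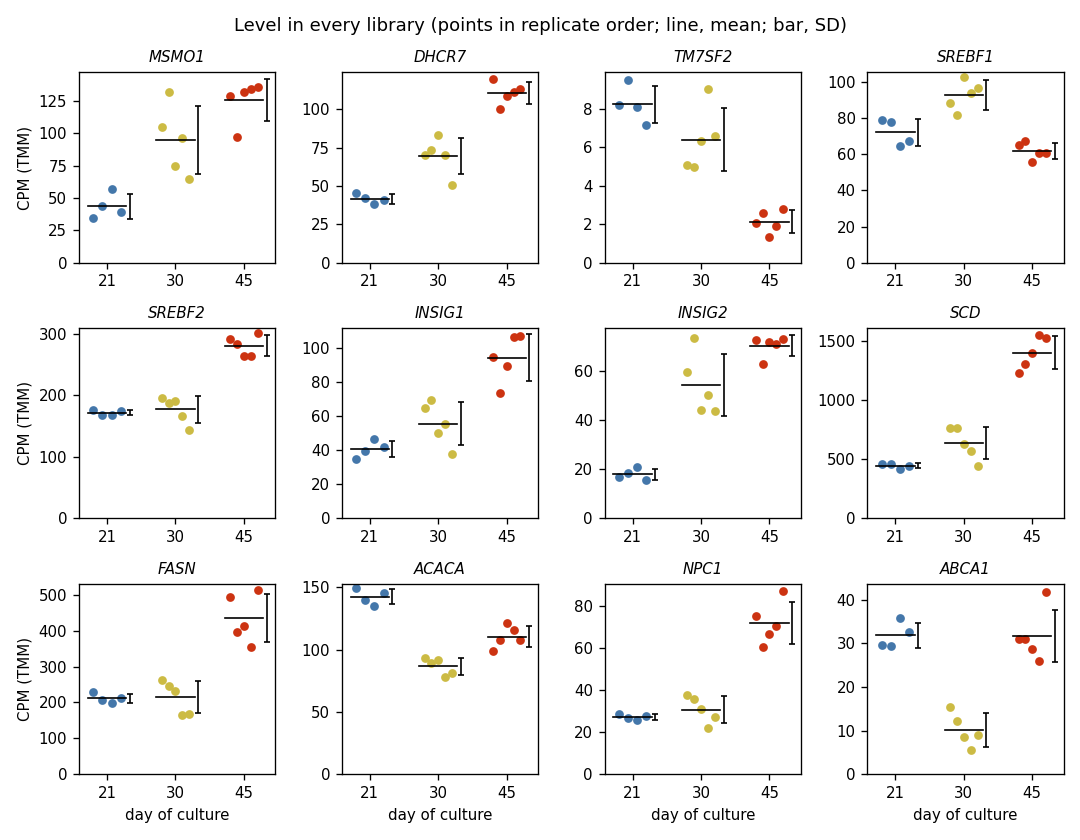
CPM (y axis, TMM-scaled, each panel on its own axis from 0) of selected genes in each of the 14 libraries, by day of culture, with lines at the means and bars for SD. SREBF1 is highest at day 30, ABCA1 lowest at day 30, TM7SF2 falls to 1.32 to 2.80 CPM at day 45 and SCD reaches 1229 to 1553 CPM.

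Of the transport genes, NPC1 rose, ABCA1 and ABCG1 dipped at day 30, and NPC2 and STARD4 were not called between day 21 and day 45. ABCA1, at chr9:104781002-104928237, encodes the pump that exports cholesterol to lipid-poor apolipoprotein. It was at 29.7, 29.4, 35.7 and 32.5 CPM at day 21, at 15.4, 12.3, 8.52, 5.50 and 9.07 CPM at day 30 and at 31.0, 31.1, 28.8, 26 and 41.8 CPM at day 45. All day 30 libraries were below all others, and day 21 and day 45 overlapped. The 2 steps were -1.64 ± 0.21 (adjusted p = 6.38e-06) and 1.64 ± 0.20 (adjusted p = 5.76e-06) and differed by 3.28 ± 0.37 (adjusted p = 3.81e-06). Without day 30 replicates 3 to 5, the steps were -1.2 (adjusted p = 4.37e-05) and 1.18 (adjusted p = 8.12e-05). With the length offset the first step was smaller, at -1.04 (adjusted p = 1.68e-06). Day 45 against day 21 gave -0.00 ± 0.20 (adjusted p = 0.99), and in log2(TPM + 1) -0.44 (adjusted p = 0.0427).

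ABCG1, its partner in export to high-density lipoprotein, was lower overall and followed the same order of means. It stood at 3.72 to 5.64 CPM at day 21, 1.57 to 3.42 CPM at day 30 and 2.51 to 5.48 CPM at day 45. Day 30 did not overlap day 21. The fall was -0.83 (adjusted p = 0.0103), and the later step of 0.60 (adjusted p = 0.0449) was lost without any of 6 libraries (day 21 replicate 2, day 30 replicates 1, 2 and 5, day 45 replicates 2 and 5), with adjusted p of 0.0505 to 0.138, and with the replicate block (0.0919). With day 30 replicates 3 to 5 left out, the fall of ABCG1 was -1.23 (adjusted p = 0.0075) and the later step 0.99 (adjusted p = 0.0256). The steps themselves differed by 1.43 (adjusted p = 0.0114), and by 2.22 (adjusted p = 0.0139) without day 30 replicates 3 to 5.

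NPC1, at chr18:23506184-23586898, encodes the lysosomal membrane protein that releases cholesterol taken up by the cell. Its values were 28.8, 26.8, 25.7 and 27.5 CPM at day 21, 37.6, 35.7, 31.0, 21.9 and 27.1 CPM at day 30 and 75.1, 60.6, 66.7, 70.6 and 87.2 CPM at day 45. Day 45 lay above every other library and the earlier days overlapped. NPC1 changed by 0.17 (adjusted p = 0.30) and then by 1.23 ± 0.13 (adjusted p = 1.06e-06), a difference between steps of 1.06 (adjusted p = 0.00116). That difference was 0.54 (adjusted p = 0.0802) without day 30 replicates 3 to 5, when the steps were 0.43 (adjusted p = 0.00965) and 0.96 (adjusted p = 3.12e-05), and 0.93 (adjusted p = 0.00754) in log2(TPM + 1). With day 45 replicate 1 placed at day 30 it was not called (adjusted p = 0.462).

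NPC2, the soluble lysosomal protein that hands cholesterol to NPC1, did not follow it in CPM. It was at 51.7 to 57.0 CPM at day 21 and 53.0 to 59.5 CPM at day 45 (0.08, not called). At day 30 replicates 1 and 2 were at 40.6 and 35.7 CPM, below every other library, and replicates 3 to 5 at 60.8, 67.1 and 57.9 CPM. The step to day 30 was -0.04 over all libraries and -0.50 (adjusted p = 0.000377) without replicates 3 to 5, when the step after it was 0.56 (adjusted p = 0.000185). NPC2 was lower at day 45 in log2(TPM + 1) (-0.39, adjusted p = 0.00414). STARD4, a soluble sterol carrier, was at 15.8 to 27.2 CPM, 11.2 to 23.7 CPM and 19.6 to 26.6 CPM in the order of days. Its step from day 30 to day 45 (0.50, adjusted p = 0.0439) was 0.04 (adjusted p = 0.868) without day 30 replicates 3 to 5. The same step was lost without any single one of 7 libraries (0.0525 to 0.112), namely day 21 replicate 2 and replicates 3, 4 and 5 of days 30 and 45, and with the replicate block (0.0721).

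In the fatty acid branch, SCD and FASN rose to day 45 while ACACA fell by day 30 and rose again in part. ACACA makes malonyl-CoA, FASN joins it into palmitate, and SCD puts the double bond into oleate. SCD, at chr10:100347124-100364834, was at 458, 465, 420 and 442 CPM at day 21, at 767, 763, 633, 573 and 445 CPM at day 30 and at 1229, 1309, 1396, 1553 and 1530 CPM at day 45. Day 45 lay far above the rest, and day 30 overlapped day 21 through its replicate 5. SCD rose by 1.65 ± 0.15 (adjusted p = 4.27e-08) in all, by 0.51 (adjusted p = 0.00566) to day 30 and by 1.14 ± 0.13 (adjusted p = 2.98e-06) after it. The difference between the steps (0.63, adjusted p = 0.0336) was lost without day 21 replicate 2 (0.0537), day 30 replicates 3, 4 or 5 (0.06, 0.087 and 0.0851) or day 45 replicates 4 or 5 (0.0541 and 0.0533). It was 0.09 (adjusted p = 0.764) without day 30 replicates 3 to 5, when the steps were 0.77 (adjusted p = 3.04e-05) and 0.86 (adjusted p = 3.33e-05), and was also lost with the replicate block (0.0605) or with day 45 replicate 1 placed at day 30 (0.584). In log2(TPM + 1) the whole change was 1.2 (adjusted p = 4.74e-05).

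FASN, at chr17:82078333-82098332, was at 229, 208, 199 and 213 CPM at day 21, at 263, 246, 232, 166 and 167 CPM at day 30 and at 495, 397, 412, 356 and 513 CPM at day 45. The first 2 days overlapped and day 45 was above both. FASN changed by 0.02 ± 0.15 (adjusted p = 0.929) and then rose by 1.02 ± 0.14 (adjusted p = 1.27e-05). The steps differed by 1 (adjusted p = 0.00279), by 0.50 (adjusted p = 0.133) without day 30 replicates 3 to 5, by 0.27 (adjusted p = 0.267) after the length offset, and not by a called amount with day 45 replicate 1 at day 30 (adjusted p = 0.486). The first step of FASN was 0.26 (adjusted p = 0.132) without day 30 replicates 3 to 5, when the second was 0.76 (adjusted p = 0.000423), and the length offset made the first a called rise of 0.46 (adjusted p = 0.00288). The rise from day 21 to day 45 was 1.03 ± 0.15 (adjusted p = 1.29e-05) in counts and 0.42 (adjusted p = 0.0102) in log2(TPM + 1).

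ACACA, at chr17:37084988-37406818, was at 149, 140, 135 and 145 CPM at day 21, at 93.1, 89.6, 91.5, 77.6 and 80.9 CPM at day 30 and at 98.6, 108, 121, 116 and 108 CPM at day 45. The 3 days did not overlap. ACACA fell by 0.72 (-0.72 ± 0.09, adjusted p = 2.68e-06), then rose by 0.35 ± 0.08 (adjusted p = 0.00163), and ended 0.37 below day 21 (-0.37 ± 0.09, adjusted p = 0.00145). With the length offset the fall was -0.24 (adjusted p = 0.0459), but the rise (0.04, adjusted p = 0.744) and the change over the whole period (-0.20, adjusted p = 0.0792) were not called. The steps were -0.64 (adjusted p = 5.53e-05) and 0.26 (adjusted p = 0.0323) without day 30 replicates 3 to 5. In log2(TPM + 1) it fell by day 30 (-0.64), but its second step was -0.05 (adjusted p = 0.733). Summed, the 3 enzymes were at 800 ± 34.6 CPM at day 21 (SD, n = 4), 937 ± 184 CPM at day 30 and 1948 ± 143 CPM at day 45 (SD, n = 5 each), and at 307, 299 and 554 TPM. SCD made up most of these sums, with day 45 means of 1403 CPM and 420 TPM. The mean of ACACA was instead highest at day 21 on both scales (142 CPM and 46.9 TPM).

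The difference between the later and the earlier step was tested for every member. It was positive in 7 (ABCA1, ABCG1, ACACA, NPC1, FASN, SCD and SREBF2) and negative in 8 (TM7SF2, INSIG2, SREBF1, FDPS, EBP, LSS, MVD and MVK), beside 25.3% and 27.5% of all genes. In log2(TPM + 1) the counts were 15 and 1, beside 40.9% and 12.8% of all genes. Leaving out day 30 replicates 3 to 5 gave 4 and 5, beside 15.4% and 15.2%. With the length offset, of these 15 the differences of ABCA1, ABCG1, NPC1, INSIG2, SREBF1 and LSS were still called. Of the 8 negative ones, the difference of MVD (-0.41, adjusted p = 0.0368) and of MVK (-0.40, adjusted p = 0.0357) did not hold without any single one of several libraries, with adjusted p up to 0.0798 and 0.0866. Replicates 3 and 4 of days 21 and 30 and replicates 2, 4 and 5 of day 45 were such libraries for both. For MVD day 30 replicate 2 was another, and for MVK day 30 replicates 1 and 5.

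**Figure D4:**
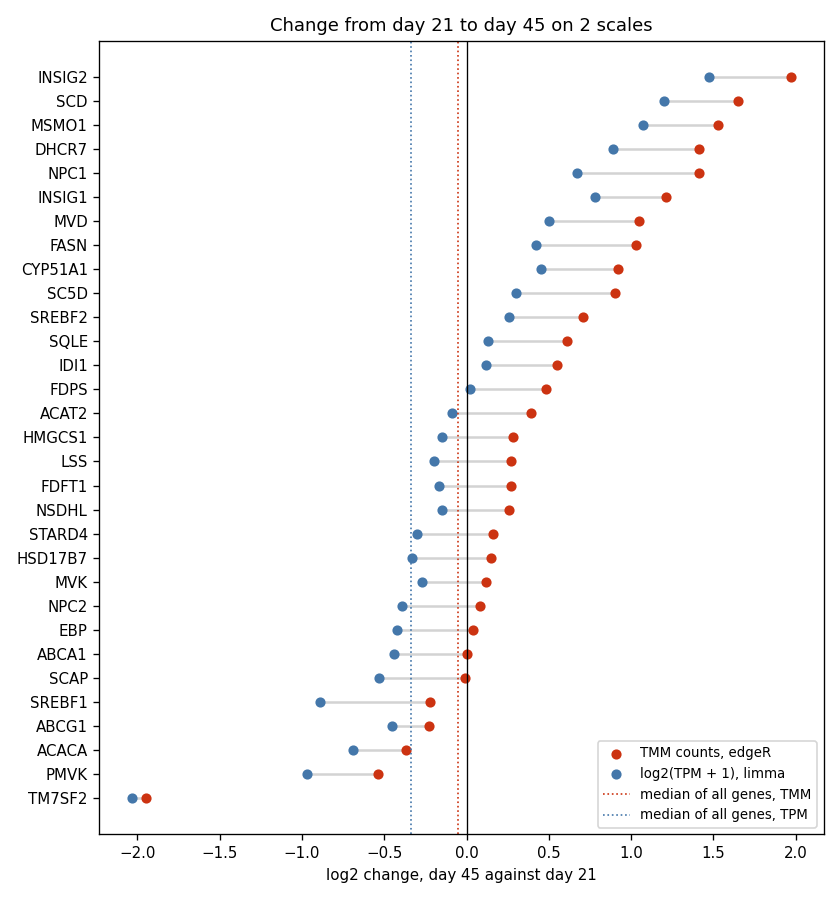
Change of each of the 31 genes (rows) from day 21 to day 45 on a log2 scale (x axis), from TMM-scaled counts (red points) and from log2(TPM + 1) (blue points), with grey lines joining the values of a gene and dotted lines at the medians of all genes tested, -0.05 and -0.34. INSIG2 and SCD lie farthest right and TM7SF2 farthest left on both scales, and each blue point lies left of its red one.

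Genes of 5 neighbouring lists were read against the same background for day 45 against day 21, with 27.1% of all genes higher, 30.5% lower and a median of -0.05. These lists, too, were chosen with earlier results of these data known. Of 24 other genes of fatty acid, triglyceride and phospholipid synthesis, 13 rose and 4 fell from day 21 to day 45 (median 0.26), with ME1, a source of NADPH, at 2.35 ± 0.14 and FADS3, of the desaturase family, at 1.39 ± 0.16, and with SCD5, a second stearoyl-CoA desaturase, at -1 ± 0.14 and DGAT1, which makes triglyceride, at -0.86 ± 0.10. Of 10 genes of the isoprenoid and dolichol branch, 4 rose and 1 fell (median 0.18). RABGGTB, a subunit of the enzyme that attaches geranylgeranyl to Rab proteins, rose by 1.07 ± 0.11, DHDDS, which makes dolichol chains, by 0.66 ± 0.09, and the farnesyltransferase subunit FNTB changed by -0.79 ± 0.10. Of 10 accessory proteins of sterol synthesis, 5 rose and 0 fell (median 0.28), led by FAXDC2 (1.37 ± 0.18) and CYB5R3 (1.28 ± 0.11), which passes electrons to sterol oxidases.

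Among 17 genes tested for sterol sensing and its control, 11 rose and 3 fell from day 21 to day 45 (median 0.45), beside the same 27.1% and 30.5% of all genes. The lipoprotein receptor VLDLR went from 16.5 ± 4.24 CPM at day 21 (SD, n = 4) to 109 ± 8.85 CPM at day 45 (SD, n = 5), a change of 2.72 ± 0.17 (adjusted p = 3.63e-10). NR1H2, a liver X receptor, rose by 1.2 ± 0.11. TMEM97, which binds NPC1, changed by -0.65 ± 0.13. Of 17 genes tested for sterol transport, esterification and oxidation, 8 rose and 6 fell (median 0.25), beside the same shares of all genes. CYP27A1, which makes an oxysterol, went from 7.24 ± 1.26 CPM to 70.8 ± 11.4 CPM (3.29 ± 0.14, adjusted p = 9.95e-12), and CAV1, of the caveolae, from 0.891 ± 0.0802 CPM to 35.2 ± 9.06 CPM (5.30 ± 0.21, adjusted p = 3.88e-12). ABCG4 and CYP39A1, at most 2.45 CPM in any library, changed by -1.74 ± 0.27 and -1.16 ± 0.28.

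Other cell types known for lipid or sterol handling were looked for by their markers, and sums are given in the order of days 21, 30 and 45. Adipocyte markers (8 genes, 1 higher and 1 lower of 4 tested) summed to 5.22 to 6.70, 3.52 to 5.77 and 3.37 to 5.14 CPM, and ADIPOQ was at 0 in every library. Macrophage markers (9 genes, 2 higher and 1 lower of 3 tested) summed to 9.39 to 12.3, 13 to 25.4 and 47.4 to 67.2 CPM, of which CD68 was 45.3 to 64.9 CPM at day 45, with C1QA and TYROBP at 0 throughout. Hepatocyte markers (8 genes, 1 tested and higher) summed to 1.53 to 4.91, 21.8 to 35.7 and 74.4 to 149 CPM. SERPINA1 alone was at 74.0 to 149 CPM at day 45, and ALB was at most 0.298 CPM in any library. Markers of myelinating glia (7 genes, 2 higher and 3 lower of 6 tested) summed to 33.4 to 40.2, 70.6 to 103 and 98.7 to 112 CPM, mostly PRX and MBP, and SOX10 was at most 0.165 CPM at day 45. Steroidogenic cell markers (5 genes, 2 tested and higher) and endothelial markers (5 genes, 1 tested and higher) reached at most 5.36 and 1.33 CPM, and CDH5 was at 0. The part of CD68, SERPINA1, PRX and MBP, which were higher at the later days, and of the chondrocyte markers in the results was not tested.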

How the data were processed

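Whole-pellet RNA of 14 libraries was extracted with the RNeasy micro kit and sequenced from TruSeq RNA Library Prep Kit v2 libraries (strand not marked), per the labels' protocols. Reads were processed with STAR 2.4.2a, GRCh38 and RSEM 1.2.25, per the submitters' processing notes, and the sources used here give no annotation release. Per the file headers, the authors deposited RSEM expected counts, TPM and effective length per gene. The deposited expected counts were rounded, filtered with filterByExpr by day (17838 genes kept), scaled by TMM and fitted with 1 mean per day over all 14 libraries (R 4.3.3, edgeR 4.0.16, robust quasi-likelihood F-test, Benjamini-Hochberg over all genes). SE is the log2 fold change over the square root of F. CPM was computed from the counts. The deposited effective length gave the length offset and length correlation. The deposited TPM entered limma 3.58.1 as log2 with a pseudocount of 1 or 0.1, a scale that understates changes of low genes. DESeq2 1.42.0 and limma voom were alternatives. Coordinates come from GENCODE 29.

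The 31 members and all lists were chosen with earlier results of these data known. Every member is described. Of each other list, the 2 called genes with the largest change in each direction from day 21 to day 45 are named, and some genes that this rule names are not reported here. The fit was tested on simulated counts. With 18183776 to 33660704 counts per library, the fewest behind a member's value were 28.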

Additional observations from a re-analysis of the deposited data

Results flagged for a closer look

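In 2 of the 93 sets of day and member examined, a library lay far from the others of its day, where chance gives about 5%. MSMO1 was at 97.4 CPM in day 45 replicate 2 and at 129 to 136 CPM in the other 4 libraries. INSIG2 was at 62.9 CPM in the same library and at 70.8 to 72.9 CPM in the others. Without day 45 replicate 2 the step of MSMO1 from day 30 to day 45 was called (adjusted p = 0.0274, edgeR).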

How the results depend on the processing

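Beside the counts reported, 27 alternatives were run, 14 of them leaving out 1 library each. From day 21 to day 45, 18 of 21 called members kept their call without any single library (FDFT1, LSS and NSDHL did not), and DHCR7, FASN, INSIG1, INSIG2, MSMO1, MVD, NPC1, SCD and TM7SF2 kept it under every alternative. For day 30 against day 21 the latter were ABCA1, INSIG2 and MSMO1, for day 45 against day 30 ABCA1, FASN, NPC1, SCD and TM7SF2, and for the difference between the steps ABCA1, ABCG1 and SREBF1. Leaving out 1 library gave 15 to 18 members higher and 3 to 4 lower for day 45 against day 21 (9335 to 10460 of all genes called), 11 to 15 and 3 to 5 for day 30 against day 21 (8768 to 9938), 12 to 18 and 2 to 3 for day 45 against day 30 (9031 to 10235), and 6 to 10 and 6 to 8 for the difference (8262 to 9623).

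Limma on log2(TPM + 1), then on log2(TPM + 0.1), gave 8 and 8 members higher and 11 and 8 lower for day 45 against day 21, 2 and 2 higher and 14 and 13 lower for day 30 against day 21, and 15 and 15 higher and 1 and 1 lower for the difference. For day 45 against day 30 they gave 14 and 14 members higher and 3 and 3 lower. The median of all genes from day 21 to day 45 moved from -0.05 to -0.34 and -0.46 on these scales. A test against a 1.5-fold change (glmTreat) gave 9 higher and 1 lower (4769 of 10284 genes called in all) for day 45 against day 21, 2 and 1 (3705 of 9696) for day 30 against day 21, 4 and 1 (3523 of 10051) for day 45 against day 30, and, for the difference, 5 higher and 3 lower (5782 of 9404). Without day 30 replicates 3 to 5, 11 members were higher from day 30 to day 45, and the difference was positive in 4 and negative in 5 (5659 genes in all). With day 45 replicate 1 at day 30, 10 were higher from day 30 to day 45 (6466 genes in all), and the difference was positive in 3. With no low-count filter the difference was negative in 4, and with a length offset in 3. The cause was not tested in any of these.

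Members whose sign turned on the TPM scales, with a call on at least 1 scale, are given with a pseudocount of 1 and then 0.1. For day 45 against day 21 they were ACAT2 (-0.09, -0.09), MVK (-0.27, -0.28), FDFT1 (-0.17, -0.17), LSS (-0.20, -0.20), NSDHL (-0.15, -0.16), EBP (-0.42, -0.43), NPC2 (-0.39, -0.39) and, with 1 alone, HSD17B7 (-0.33). For day 30 against day 21 they were ACAT2 (-0.17, -0.18), MVK (-0.26, -0.27), FDFT1 (-0.28, -0.28), LSS (-0.17, -0.18), NSDHL (-0.47, -0.49), HSD17B7 (-0.50, -0.56), EBP (-0.19, -0.20), SREBF1 (-0.17, -0.17), SREBF2 (-0.50, -0.51) and INSIG1 (-0.18, -0.18). ACACA gave -0.05 and -0.05 for day 45 against day 30. For the difference they were DHCR7 (0.72, 0.73), HSD17B7 (0.66, 0.75), LSS (0.15, 0.15), MVD (0.12, 0.12) and MVK (0.25, 0.26). A length offset turned EBP at day 30 (-0.0 from day 21) and from day 30 to day 45 (0.09), FDFT1 (0.23) and FDPS (0.26) from day 30 to day 45, and the differences of EBP (0.09), MVD (0.1), MVK (0.0), SCD (-0.07) and SREBF2 (-0.01).

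Replicate numbers did not pair the libraries: same-numbered libraries of different days correlated at -0.25 to 0.12 (13 pairs, median 0.02), others at -0.22 to 0.23, and 2 of 14 libraries correlated best with their own number. With the number as a replicate block the counts were 18 higher and 3 lower (9728 genes in all) for day 45 against day 21, 14 and 4 (8872), 15 and 3 (9519) for day 45 against day 30, and 6 and 7 (8632) for the difference.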

Other observations

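Genes that share an enzymatic step or a family with a member, were chosen after their values were seen, and their differences from the members were not tested. LBR, the other reductase of the TM7SF2 step, went from 49.0 ± 5.18 CPM at day 21 (SD, n = 4) to 22.0 ± 3.98 CPM at day 30 and 25 ± 2.38 CPM at day 45 (SD, n = 5 each), a change of -0.97 ± 0.12 by day 45 (edgeR adjusted p = 2.86e-06). Both reductases were thus lower at day 45, while LBR had its fall by day 30 (-1.15 ± 0.12). SCD5 was lower at day 45 (-1 ± 0.14) where SCD was higher (1.65 ± 0.15). ACACB, the mitochondrial counterpart of ACACA, changed by -0.60 ± 0.13 (adjusted p = 0.000925), and ACAT1, the mitochondrial counterpart of ACAT2, by -0.32 ± 0.09 (adjusted p = 0.00805), against 0.39 ± 0.12 for ACAT2.

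EBPL, a relative of EBP, had its highest mean at day 30 as EBP did, at 11.8 ± 1.15, 15.9 ± 2.72 and 11.3 ± 1.46 CPM. STARD5 rose by 0.76 ± 0.18 by day 45 (adjusted p = 0.0017), and ABCA2, a relative of ABCA1, by 0.60 ± 0.13 (adjusted p = 0.000696) with no dip at day 30 (0.14 ± 0.13). IDI2 was too low to be tested.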
